A study of Mus musculus with 4 samples.

Results

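Small T cell clones of the liver were examined here: groups of 2 to 5 cells that carried the same T cell receptor. In each receptor table the TRA and the TRB contig with the most UMIs (unique molecular identifiers, each standing for 1 captured RNA molecule) was kept for every cell. A clonotype was defined by the V gene, the J gene and the CDR3 nucleotides of both chains, and its cells were counted within a genotype over cells with more than 200 detected genes and under 5% mitochondrial UMIs. This gave 317 small clones with 839 cells, out of 2835 clonotypes, 4595 cells with both chains and 28018 filtered cells. The library labelled WT held 138 small clones (374 cells) and the library labelled dKO held 179 (465 cells). The question was how alike the sister cells of a clone were, in Foxp3, Ifng, Il17a and Mki67 and over the whole expression profile, against unrelated cells of the same library.

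Hepatic CD4+ T cells were sorted from male WT mice and from Nr4a1 fl/fl Nr4a2 fl/fl Cd4Cre (dKO) mice, whose ages are not given in the sources used here. All mice were fed CD, a high-fat diet with 60 kcal% fat and 0.1% methionine that is deficient in choline, for 8 weeks. RNA and receptors were read from the same droplets, with the cells of 2 mice pooled for WT and 2 for dKO into a single library each. No test between genotypes was therefore possible, and intervals cover counting error only. Cd4-Cre is active in all cells that pass through the CD4+ CD8+ stage of the thymus and is therefore not limited to mature CD4+ T cells.

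A T cell builds its receptor once, by V(D)J rearrangement of the TRA locus on chromosome 14 and the TRB locus on chromosome 6, and passes it to its daughters. The CDR3 spans the joints of the gene segments and is so varied that cells with the same 2 CDR3 nucleotide sequences are taken to descend from 1 cell. Foxp3 encodes the transcription factor that defines regulatory T cells (Tregs), Ifng the signature cytokine of Th1 cells, Il17a that of Th17 cells, and Mki67 the Ki-67 protein found in cycling cells. On GRCm38, Foxp3 lies at chrX:7573644-7595245, Ifng at chr10:118441046-118445892 and Il17a at chr1:20730905-20734496, all on the plus strand, and Mki67 at chr7:135689784-135716361 on the minus strand.

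The receptors below belong to 8 small clones, named by library and number in order of size, that were chosen after their values were seen because several or all of their cells carried the gene in question. Clones dKO-9 and dKO-60 had Il17a in every cell, dKO-29 and WT-56 had Foxp3 in every cell, dKO-12 had Ifng in 4 of 5 cells, WT-29 had Ifng and Mki67 in every cell, and WT-41 and dKO-13 combined Foxp3 with Il17a. Each CDR3 is written 5′ to 3′ as in the receptor tables, and capitals mark the first and the last codon, which encode the conserved cysteine and phenylalanine that bound the CDR3.
dKO-9 TRA: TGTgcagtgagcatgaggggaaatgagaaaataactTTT
dKO-9 TRB: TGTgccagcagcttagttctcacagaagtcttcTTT
dKO-60 TRA: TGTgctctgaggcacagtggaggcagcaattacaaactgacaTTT
dKO-60 TRB: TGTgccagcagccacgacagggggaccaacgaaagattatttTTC
dKO-29 TRA: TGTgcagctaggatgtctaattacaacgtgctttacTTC
dKO-29 TRB: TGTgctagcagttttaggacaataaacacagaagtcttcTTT
WT-56 TRA: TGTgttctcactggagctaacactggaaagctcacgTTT
WT-56 TRB: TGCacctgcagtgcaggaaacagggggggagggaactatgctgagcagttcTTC
dKO-12 TRA: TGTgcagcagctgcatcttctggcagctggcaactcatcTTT
dKO-12 TRB: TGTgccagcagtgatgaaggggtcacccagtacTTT
WT-29 TRA: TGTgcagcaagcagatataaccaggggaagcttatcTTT
WT-29 TRB: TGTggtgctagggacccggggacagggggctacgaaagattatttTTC
WT-41 TRA: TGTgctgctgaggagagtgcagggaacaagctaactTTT
WT-41 TRB: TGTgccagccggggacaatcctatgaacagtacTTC
dKO-13 TRA: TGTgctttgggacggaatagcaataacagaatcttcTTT
dKO-13 TRB: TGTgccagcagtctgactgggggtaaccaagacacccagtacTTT
The V and J genes of dKO-9 were TRAV7-3 with TRAJ48 and TRBV3 with TRBJ1-1, and those of dKO-60 were TRAV6-7-DV9 with TRAJ53 and TRBV5 with TRBJ1-4, so dKO-9 and dKO-60 shared no segment. CDR3 length over all small clones had a median of 42 bases for TRB in both libraries and of 42 (WT) and 39 (dKO) bases for TRA.

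Depth was modest. The median small-clone cell held 2515 UMIs in the WT library (range 565 to 16468) and 1866 in the dKO library (531 to 12341). Cd3e, a subunit of the receptor complex, was detected in 89.0% and 87.5% of small-clone cells, Cd4 in 48.9% and 73.3%, and Cd8a in 0 of 374 and 0 of 465 cells, which allows up to 0.802% and 0.645% of cells with a UMI, though not of cells expressing the gene at this depth. Cd8b1, the other CD8 chain, had 7 UMIs in WT and 58 UMIs in dKO small-clone cells, in 1.87% and 5.81% of them. The targeted genes went against the labels: in small-clone cells Nr4a1 measured 803 CPM (UMIs of the gene per 1e6 UMIs) in the library labelled WT and 1981 CPM in that labelled dKO, and Nr4a2 179 and 385 CPM. UMIs were counted per gene, not per exon, so RNA of an allele that has lost only part of the gene is counted as well. At least 5 UMIs of myeloid, plasmacytoid dendritic or B cell markers were found in 9 and 34 small-clone cells, and 2 or more TRB contigs in 31 and 11. The 2 libraries had 245 barcodes in common, 11 of them on WT and 5 on dKO small-clone cells.

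No clone was found in both libraries. Most small clones were pairs: the WT library had 79 clones of 2 cells, 31 of 3, 17 of 4 and 11 of 5, and the dKO library had 114, 35, 18 and 12. They made up 17.2% of WT and 19.2% of dKO cells with both chains. Second TRA chains, which did not define a clone, were compared among sisters. Where 2 or more sisters had a second TRA contig, which happened in 4 WT and 2 dKO clones, the second TRA was the same in all 4 and 2. The cell barcodes of sisters differed in at least 7 bases, so sisters were not 1 barcode read with an error.

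The invariant receptor of natural killer T cells, TRAV11 joined to TRAJ18, was carried by 51 of 1275 WT clonotypes seen once (4.0%, 95% exact binomial interval 2.99 to 5.23%) and by 55 of 1170 in dKO (4.70%, 3.56 to 6.08%). Among small clones it was carried by 0 of 138 in WT (exact interval 0 to 2.64%) and by 1 of 179 in dKO (0.559%, 0.0141 to 3.07%). Zbtb16, the transcription factor of these cells, gave 89 and 79 UMIs over cells of clonotypes seen once, against 1 and 4 UMIs over small-clone cells. Invariant receptors were thus a smaller share of small clones than of clonotypes seen once in both libraries.

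Some receptors were related without being the same clonotype. In 36 WT and 41 dKO small clones the TRB was also carried by another clonotype of the library, small clones included. WT-11 and WT-15, of 5 and 4 cells, are such a pair, shown as an example of a shared TRB. They shared the TRB and differed in the TRA kept for the cell (TRAV7N-4 with TRAJ22, and TRAV13D-2 with TRAJ32), and a cell of one carried the TRA of the other as its second chain.
WT-11 TRA: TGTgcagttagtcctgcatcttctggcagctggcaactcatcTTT
WT-15 TRA: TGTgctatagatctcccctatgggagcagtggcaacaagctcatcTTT
WT-11 and WT-15 TRB: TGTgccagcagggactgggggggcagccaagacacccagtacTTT
Such a match of the second TRA was found in 10 of 37 WT and 8 of 47 dKO pairs of clonotypes with the same TRB. WT-122, of 2 cells, shared the TRB and the TRA CDR3 nucleotides with a WT clone of 16 cells. The 2 differed in the TRA V gene alone (TRAV7-4 and TRAV7N-6, both with TRAJ13), so WT-122 may belong to that larger clone. In 3 pairs the TRA CDR3 differed by 1 base, always between a small clone and a clonotype seen once, and always with a change of the encoded amino acid. With positions counted from 1 at the 5′ end of the CDR3 and the small clone's base first, these were A38C for WT-52, A29C for dKO-113 and A21T for dKO-21. The dKO-113 pair is printed with the differing base in capitals. Its minority form rested on 4 contig UMIs in its cell, and the clone's form on 3 to 13 per cell.
dKO-113 TRA: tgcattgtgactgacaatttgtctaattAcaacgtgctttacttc
single near dKO-113 TRA: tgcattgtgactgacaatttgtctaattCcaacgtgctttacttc

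Foxp3, Ifng, Il17a and Mki67 were first compared between sisters as present or absent, with a cell counted as positive if it had at least 1 UMI. Among small-clone cells, Foxp3 was found in 6.68% of WT and 32.7% of dKO cells, Ifng in 32.1% and 11.0%, Il17a in 4.01% and 9.25%, and Mki67 in 22.2% and 13.8%. As a background, in cells that carried non-T markers and had no receptor contig and no T cell UMI, the shares were between 0.148% and 0.814% in WT (n = 1352 cells, median 1376 UMIs) and between 0.0306% and 1.16% in dKO (n = 3264, median 2904 UMIs). For each gene the repeat share was then computed, which is the percentage of clones with the gene in 2 or more cells among clones with it in 1 or more. The value for a random grouping of the same cells into clones of the same sizes was calculated exactly from the hypergeometric distribution. Frequencies by sister, given below, were counted over ordered pairs (each cell with each of its sisters), so larger clones weigh more.

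Foxp3 repeated in sisters. In the dKO library 90 clones had a Foxp3+ cell and 47 of these had at least 2, a repeat share of 52.2% (exact binomial interval 41.4 to 62.9%) against 30.8% for random grouping. All 6 dKO clones of 5 cells with any Foxp3 had it in 2 or more cells. In the WT library Foxp3 was rare: 4 of 19 clones repeated it, 21.1% (6.05 to 45.6%) against 6.60%, and the interval includes the random value. The WT excess of 14.5 points (−0.544 to 38.97) was 18.8 points (0.787 to 49.6) with cells thinned to 1000 UMIs, 24.3 (0.988 to 59.6) at 2000 UMIs and 15.9 (2.29 to 35.9) by the deposited clonotype number. It was 6.71 (−3.04 to 41.2) with clones of 2 cells only, the lowest of 15 alternatives, and in 12 of the 15 the interval includes 0. A dKO cell had Foxp3 with a frequency of 53.8% if its sister had it and 22.2% if its sister had not. The corresponding WT frequencies were 36.4% and 3.87%. Clone dKO-29 held 3, 1, 2 and 3 Foxp3 UMIs in cells of 4841, 2067, 1434 and 880 UMIs, and WT-56 held 5, 4 and 2 in cells of 13125, 3103 and 2030. Both clones were chosen for having Foxp3 in every cell. The dKO excess over random grouping, 21.4 percentage points, depended on how a positive cell was called. It was 10.4 points (−0.51 to 23.7) with every cell thinned to 1000 UMIs and 1.85 points (−6.52 to 13.7) with at least 2 UMIs required.

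Il17a was gathered in few clones. In WT, 10 clones had it and 4 of them in 2 or more cells, a repeat share of 40.0% (12.2 to 73.8%) against 3.86% for random grouping. In dKO, 10 of 26 clones repeated it, 38.5% (20.2 to 59.4%) against 8.67%. The sister of an Il17a+ cell had Il17a in 12 of 25 ordered pairs in WT (48.0%) and in 56 of 85 in dKO (65.9%). For the sister of a cell without it the frequencies were 1.75% and 3.58%. Clones dKO-9 and dKO-10, described below, weigh most in the dKO value. In dKO, 7 clones had Il17a in every cell where random grouping gives 0.981, and 153 clones had it in none where it gives 139.6. Clone dKO-9 held 58, 8, 3, 1 and 2 Il17a UMIs in its 5 cells, and its deepest cell also had 18 Mki67 UMIs. Clone dKO-10 held 25, 7, 1 and 4 in 4 cells and 0 in its deepest cell, of 2248 UMIs. The 3 cells of dKO-60 held 45, 15 and 18. Of the 12 dKO clones of 5 cells, dKO-9 and dKO-10 alone had any Il17a, in 5 and 4 cells. The excess over random grouping was 36.1 points in WT and 29.8 points in dKO and stayed above 0 under every processing alternative tried. It was lowest with clones of 2 cells only, at 18.4 points (−1.11 to 70.02) in WT and 18.9 points (2.20 to 45.3) in dKO, and the WT excess was 58.5 points (20.5 to 87.5) without cells with 2 TRB chains.

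Ifng was found in more small-clone cells in the WT library than in the dKO library. In WT, 82 of 138 clones had an Ifng+ cell and 32 repeated it, 39.0% (28.4 to 50.4%) against 32.0% for random grouping, which lies within the interval. The excess of 6.98 points (−3.61 to 18.4) changed with the setting: it was 17.7 points (7.15 to 29.1) against cells of clonotypes seen once and 9.49 points (0.672 to 18.8) with clones defined by TRB alone. WT cells of clonotypes seen once had Ifng in 21.1%, against 32.1% of small-clone cells. The value against them therefore mixes this difference in level with the likeness of sisters. In the other 13 of 15 alternatives the interval includes 0, and the lowest was 3.41 points (−6.96 to 14.8), without barcodes found in both libraries. A WT cell had Ifng with a frequency of 35.6% when its sister had it and 30.5% when not. All 11 WT clones of 5 cells had Ifng in 1, 2 or 3 cells, none in 4 or 5. In dKO, 12 of 37 clones repeated it, 32.4% (18.01 to 49.8%) against 10.3%, and the frequencies by sister were 31.5% and 9.41%. Clone dKO-12 held 1, 2, 4 and 1 Ifng UMIs in 4 of its cells and 0 in the shallowest, of 816 UMIs. A difference between the libraries in how often sisters repeated Ifng was not tested, since each genotype is 1 library, and in clones of 2 cells the excess was 13.5 points in WT and 10.1 points in dKO.

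Mki67 repeated in sisters as well. In WT, 21 of 54 clones repeated it, 38.9% (25.9 to 53.1%) against 22.3%, and in dKO 16 of 47, 34.0% (20.9 to 49.3%) against 12.98%. The sister of an Mki67+ cell had Mki67 with a frequency of 44.8% in WT and 29.5% in dKO, and the sister of a cell without it with 16.2% and 11.1%. Clone WT-7 had Mki67 in 4 of 5 cells, WT-26 in 4 of 4 and WT-29 in 3 of 3. The WT excess for Mki67 depended on depth: it was 16.6 points (3.66 to 30.9) as counted and −2.69 points (−10.1 to 10.3) with cells thinned to 1000 UMIs, when 5 of 45 clones repeated it, and 12.8 points (−1.95 to 29.5) with cells thinned to 2000 UMIs. The dKO excess was 21.1 points as counted and 12.2 points (−0.0286 to 29.9) after thinning.

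**Figure D1:**
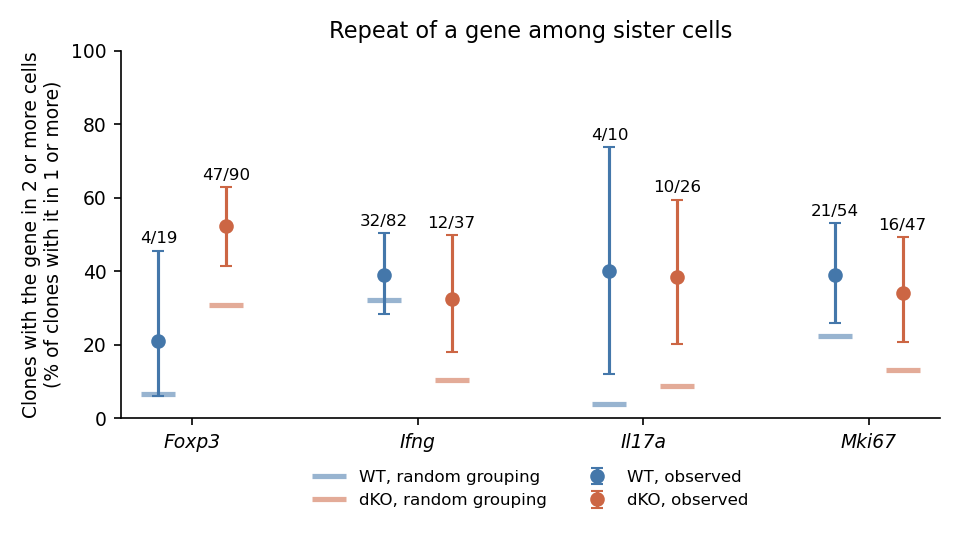
Repeat share of 4 genes in small clones of the WT (blue) and dKO (orange) library. Points are the percentage of clones with the gene in 2 or more cells among clones with it in at least 1, with the counts above, bars are 95% exact binomial intervals, and dashes are the value for random grouping of the same cells; the WT intervals for Foxp3 and Ifng reach the dash and the other 6 do not.

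The makeup of clones with 3 or more cells showed the same in another way. With 3 to 5 cells per clone, dKO clones were split for Foxp3 between many with none and many with 2 or 3 positive cells, and for Il17a most had none, 3 had it in 1 cell and 6 in 2 or more cells. WT clones were instead spread over 0 to 3 cells for Ifng. Over all sizes, clones with Foxp3 in every cell numbered 26 in dKO against 13.6 for random grouping and 3 in WT against 0.348. Clones with Ifng in every cell numbered 14 in WT against 9.30 and 3 in dKO against 1.39.

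**Figure D2:**
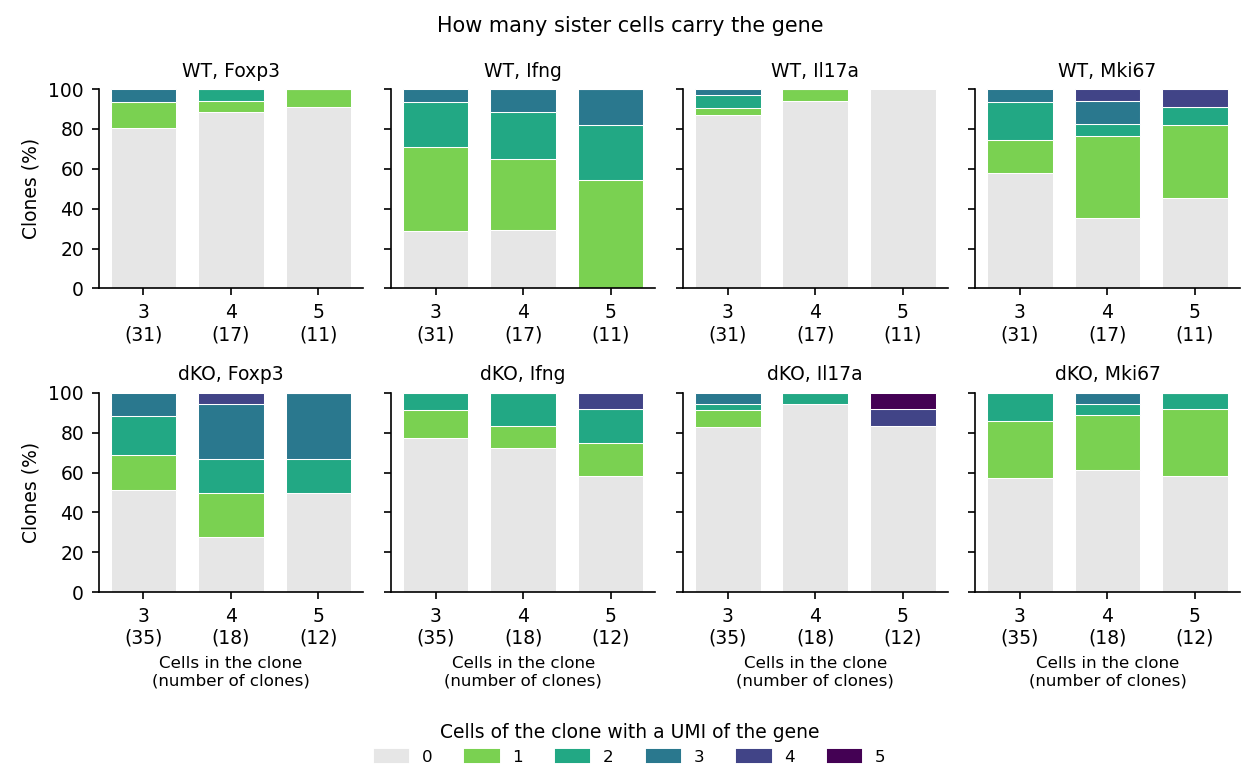
Composition of small clones of 3, 4 and 5 cells by the number of cells with at least 1 UMI of the gene, as a percentage of clones; the number of clones of each size is in parentheses on the horizontal axis. The dKO clones of 5 cells had Il17a in 0, 4 or 5 cells, and the WT clones of 5 cells all had Ifng in 1, 2 or 3 cells.

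Cytokines and Foxp3 were then compared across sisters, by counting ordered pairs in which a cell had 1 gene and its sister another. In dKO, pairs that joined different lineage genes were fewer than expected. A Foxp3+ cell had an Il17a+ sister in 6 ordered pairs where 27.1 are expected from the gene frequencies, and 5 of these can be read from clone dKO-13 and its cells below. A Foxp3+ cell had an Ifng+ sister in 15 pairs against 32.1 expected. An Ifng+ cell had an Il17a+ sister in 0 of 894 pairs against 9.09 expected. Counted by clone, 0 of 179 allow up to 1.68% of clones with such a pair. Mki67 showed no such separation: with Ifng the counts were 13 against 13.5 and with Foxp3 38 against 40.2, while with Il17a they were 24 against 11.3.

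In WT the numbers were smaller, and Foxp3 and Il17a were above expectation. A Foxp3+ cell had an Il17a+ sister in 8 ordered pairs against 2.04 expected, from 2 clones. WT-41 accounts for most: its 3 cells held 2, 2 and 1 Foxp3 UMIs and 1, 1 and 2 Il17a UMIs, at 4118, 3805 and 2376 UMIs per cell, and none of them had a second TRB. In WT-40, 2 cells held 46 and 57 Il17a UMIs and the other cell 1 Foxp3 UMI. The dKO clone of the same kind, dKO-13, held 3, 0, 3 and 2 Foxp3 UMIs and 1, 4, 0 and 0 Il17a UMIs in its 4 cells. Foxp3 with Ifng gave 12 pairs against 16.5, Ifng with Il17a 6 against 9.89, and Ifng with Mki67 55 against 54.6. Foxp3 with Mki67 gave 7 pairs against 11.4, and Il17a with Mki67 10 against 6.82. With so few clones behind each count, pairs of 1 clone are not independent, and no test was made.

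**Figure D3:**
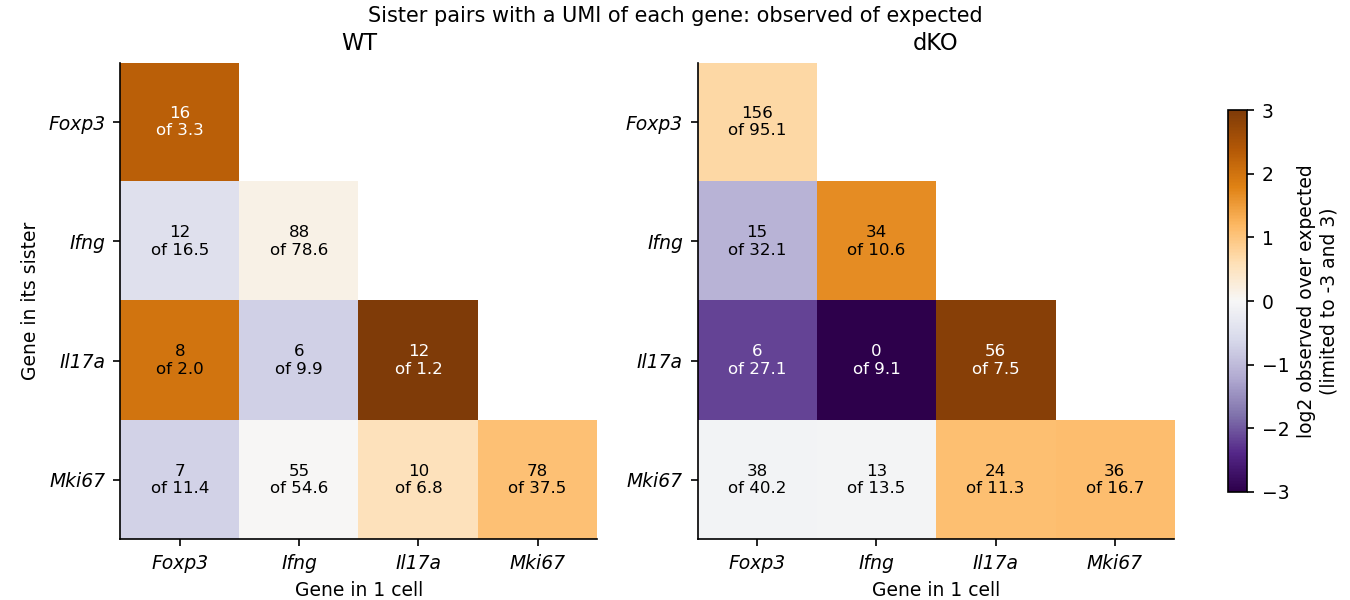
Ordered sister pairs in which 1 cell has at least 1 UMI of the first gene and its sister of the second, observed of expected, in WT (left) and dKO (right) small clones. Colour is the log2 ratio of observed to expected; the diagonal (same gene in both) is above expectation in all 8 cases, and in dKO the Foxp3, Ifng and Il17a combinations are below it.

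Sister cells were also alike over the whole profile. Log-normalized counts of the 2000 most variable genes, without receptor genes, were correlated between cells, and each sister pair was placed among all unrelated pairs of its library. The median Pearson correlation was 0.527 for 384 sister pairs and 0.494 for 69367 unrelated pairs in WT, and 0.501 for 447 sister pairs and 0.441 for 107433 unrelated pairs in dKO. Sister pairs were above the unrelated median, averaged over the clone, in 97 of 138 WT clones (70.3%, 61.9 to 77.8%) and in 136 of 179 dKO clones (76.0%, 69.0 to 82.0%). The shift was modest beside the spread: the middle 50% of unrelated pairs ran from 0.444 to 0.545 in WT and from 0.388 to 0.497 in dKO. Past the 90th percentile of unrelated pairs lay 29 WT and 50 dKO clones, and under the 10th percentile 6 and 2. By clone size the share of clones above the unrelated median was 69.6% and 76.3% for clones of 2 cells. It was 71.0% and 74.3% for clones of 3, 76.5% and 72.2% for clones of 4, and 63.6% and 83.3% for clones of 5. The median clone lay at percentile 66.6 and 79.99 of unrelated pairs for clones of 2 and 74.3 and 75.3 for clones of 3. For clones of 4 it lay at 69.0 and 67.6, and for clones of 5 at 52.1 and 62.0.

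**Figure D4:**
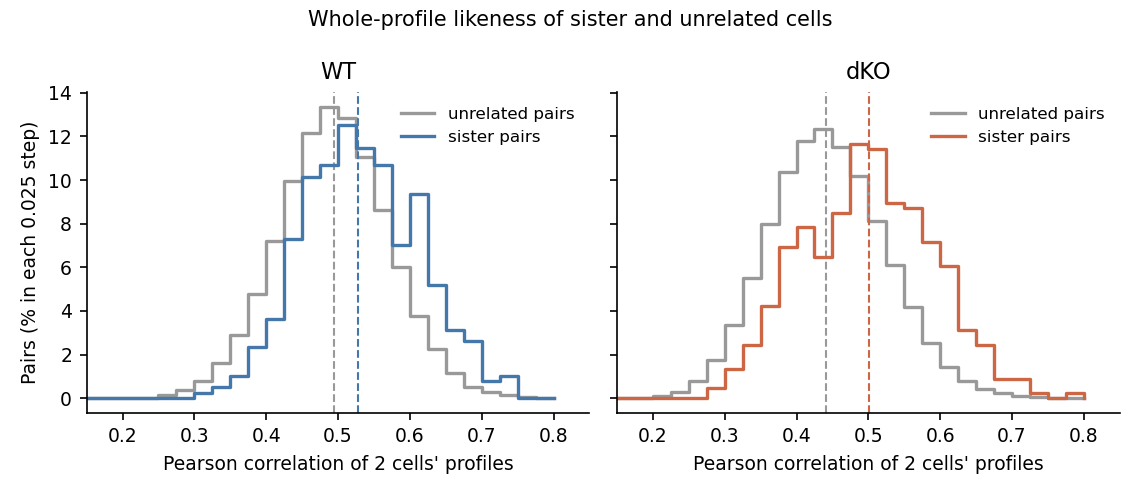
Distribution of the Pearson correlation between the profiles of 2 cells for unrelated pairs (grey) and sister pairs (coloured), as the percentage of pairs in each step of 0.025; dashed lines are medians. Sister pairs are shifted to the right in both libraries, from 0.494 to 0.527 in WT and from 0.441 to 0.501 in dKO, and the distributions overlap widely.

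Neighbours by profile were sought among the small-clone cells of a library. The nearest was a sister for 11 of 374 WT cells (2.94%, against 0.551% if neighbours were drawn at random) and for 25 of 465 dKO cells (5.38% against 0.414%). Among the 10 nearest small-clone cells a sister was found for 18.2% of WT and 21.5% of dKO cells, against 5.398% and 4.08%. A sister was thus usually not the most similar of the small-clone cells of its library. Likeness was also seen among pairs with a UMI of none of the 4 genes in either cell. There, 65.5% of 110 WT sister pairs (62 clones) and 77.2% of 101 dKO sister pairs (63 clones) were above the median of unrelated pairs of the same kind. A cell without a UMI may still express the gene at this depth, so likeness beyond the states these genes mark was not tested. Where both cells had Foxp3, 46 of 78 dKO sister pairs (59.0%, from 47 clones) and 3 of 8 WT sister pairs (4 clones) were above the median of such unrelated pairs. Where both had Il17a, 10 of 28 dKO (10 clones) and 3 of 6 WT pairs (4 clones) were. Where both had Ifng, 7 of 17 dKO (12 clones) and 28 of 44 WT pairs (32 clones) were. Where both had Mki67, 15 of 18 dKO (16 clones) and 30 of 39 WT pairs (21 clones) were. Pairs of 1 clone are not independent. Of clones past the 90th percentile, 18 of 29 in WT and 23 of 50 in dKO had Mki67 in at least 1 cell. Of all small clones, 54 of 138 and 47 of 179 had it. The median depths of clones past the 90th percentile were 4268 and 2685 UMIs, against 2795 and 2028 for all small clones. The part of depth in these Mki67 counts was not tested. The clone with the highest mean correlation was WT-29, at 0.763, with 12, 4 and 3 Mki67 UMIs in its cells. These were deep cells, of 16452, 10940 and 4373 UMIs, and the part of depth in this value was not tested either.

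Technical measures were compared between sisters in the same way. The intraclass correlation, the share of a measure's variation that lies between clones, was 0.174 ± 0.0601 (SE, over 138 clones) in WT and 0.160 ± 0.0548 (SE, over 179 clones) in dKO for the log UMI total. It was 0.134 and 0.296 for the ribosomal share and 0.0671 ± 0.0583 and 0.173 ± 0.0549 for the mitochondrial share, which in WT is little more than 1 SE from 0. With cells thinned to 1000 UMIs the clones above the unrelated median were 96 of 133 in WT and 121 of 158 in dKO. Sisters come from 1 mouse unless the same receptor arose in both, whereas unrelated pairs mix the 2 pooled mice, so likeness within a clone and likeness within a mouse cannot be told apart.

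The intraclass correlation was then computed for each of 5486 genes detected in at least 5% of small-clone cells of both libraries. At no sharing it has an SE of 0.0561 in WT and 0.0520 in dKO, so the threshold of 0.1 used here is less than 2 SE from 0. It was reached by 592 genes (10.8% of those tested) in WT and by 594 (10.8%) in dKO, with a median over all genes of 0.00885 and 0.0114. Of the genes at the threshold 137 were the same, 23.1% of each set. For most genes a likeness of sisters was not detectable at this precision.

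Several of the genes with the highest values were the same in both libraries. Ikzf2, which encodes the Treg transcription factor Helios, reached 0.422 ± 0.0558 (SE, over 138 clones) in WT and 0.389 ± 0.0515 (SE, over 179 clones) in dKO. Foxp3 itself had 0.349 and 0.320, and 0.172 and 0.141 with cells thinned to 1000 UMIs, and Klrg1, a receptor of differentiated effector and tissue Treg cells, 0.365 and 0.395. The effector genes Ccl5, a chemokine, Nkg7, a granule membrane protein, and Gzmk, a granzyme, had 0.357 and 0.348, 0.332 and 0.358, and 0.319 and 0.370. Ltb4r1, the leukotriene B4 receptor, had 0.338 and 0.296, and the calcium-binding protein gene S100a6 0.296 and 0.204.

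Other leading genes were higher in 1 library than in the other. Itgb1, the integrin beta 1 chain, led the dKO library with 0.466 ± 0.0484 (SE, over 179 clones) and had 0.212 in WT. The costimulatory receptor genes Tnfrsf4 (OX40) and Tnfrsf9 (4-1BB) had 0.446 and 0.441 in dKO and 0.0687 and 0.0539 in WT, and Ms4a4b had 0.444 against 0.135. Tmem176a had 0.418 in dKO and 0.238 in WT. In the other direction, Il1rl1, the IL-33 receptor of tissue Tregs, had 0.386 in WT and 0.136 in dKO, and A430093F15Rik 0.348 in WT and 0.000912 in dKO. With cells thinned to 1000 UMIs Il1rl1 fell to 0.0692 in dKO and A430093F15Rik to 0.0930 in WT, under the threshold. The other leading genes stayed on their side of it, but several fell by over 1.5 times: in WT Klrg1 to 0.241, Ltb4r1 to 0.178, S100a6 to 0.168, Tmem176a to 0.140 and Itgb1 to 0.118, and in dKO Itgb1 to 0.302 and Tnfrsf4 to 0.272. These differences between libraries were not tested.

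**Figure D5:**
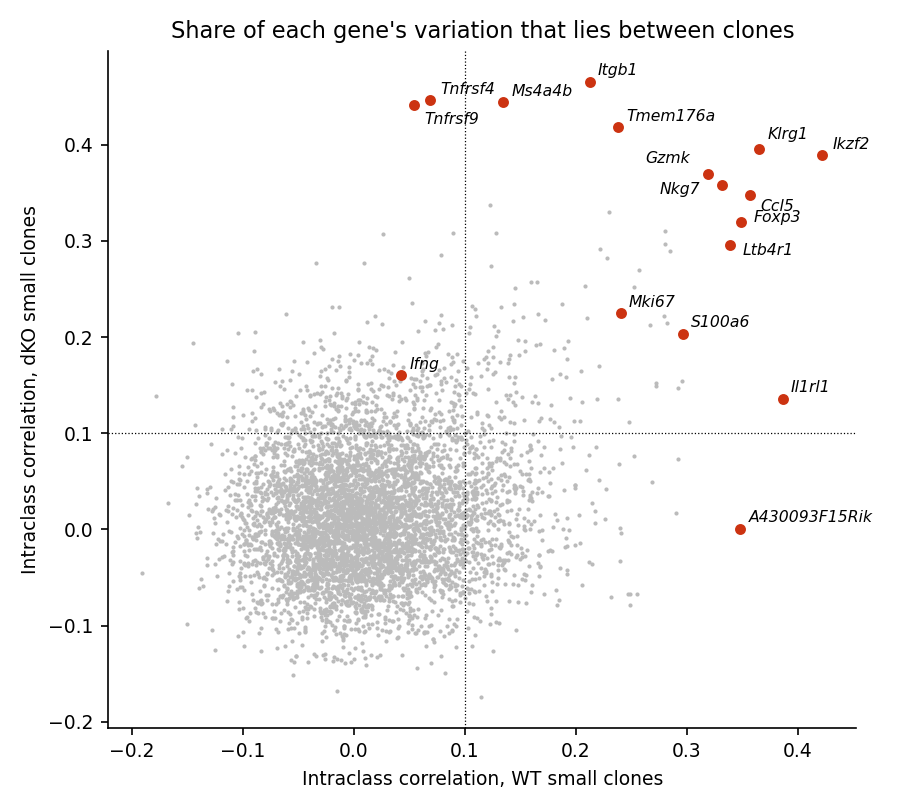
Intraclass correlation of 5486 genes over WT (horizontal) and dKO (vertical) small clones, the share of each gene's variation that lies between clones. Dotted lines mark 0.1, red points are the leading 10 genes of each library with Ifng and Mki67; Ikzf2, Klrg1, Ccl5, Nkg7, Gzmk and Foxp3 are above 0.3 in both, and Tnfrsf4 and Tnfrsf9 only in dKO.

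Gene lists were read beside the 10.8% of all genes. Of 7 Treg genes, 6 were there in WT and 7 in dKO: Ctla4, an inhibitory receptor, had 0.285 and 0.290 and Tigit, another, 0.166 and 0.224. Of 8 cycling genes, 7 and 8 were there, with Mki67 at 0.240 and 0.225 and the cyclin gene Ccnb2 at 0.208 and 0.253. All 3 cytotoxic genes tested were there in both, and 5 of 6 tissue Treg genes, among them Areg (amphiregulin) at 0.210 and 0.220. Th1 genes were divided. Of 7, 4 and 5 were at the threshold, and Ccl5 and Nkg7 were among them, but Ifng had 0.0426 ± 0.0576 (SE, over 138 clones) in WT and 0.160 ± 0.0548 (SE, over 179 clones) in dKO, and Tbx21, the Th1 master regulator T-bet, −0.0915 and 0.0745.

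Th17 genes were too rare to be among the genes tested, but the list summed per cell had the highest value of all lists, 0.582 in WT, where 29 cells in 20 clones had any of its UMIs, and 0.575 in dKO (77 cells in 49 clones). Il17a alone had 0.409 and 0.550 and its neighbour Il17f 0.502 and 0.461. For genes induced within minutes or hours the counts were mixed. None of 4 interferon response genes was at the threshold in either library, with Isg15 at −0.00369 and 0.00296. Of 7 immediate early genes, 2 in WT (Junb at 0.125 and Dusp1 at 0.100) and 1 in dKO (Dusp1 at 0.101) were there, as was the inducible Nr4a2, outside the list, at 0.121 and 0.146. Fos had 0.0365 and −0.0133, Egr1 0.00726 and −0.0678, and Nr4a3, the family member that was not targeted, 0.00583 and −0.0160. The T cell list, present in nearly every cell, had 0 of 5 in WT and 3 of 5 in dKO. Among markers of other cells, the myeloid gene Lyz2 had −0.0306 and −0.0517, while the endothelial gene Pecam1, which T cells also express, had 0.0783 and 0.152. Bst2, listed for plasmacytoid dendritic cells and also 1 of the 4 interferon response genes above, had −0.0226 and −0.0308. It was detected in 29.9% of WT and 30.3% of dKO small-clone cells, so it is not read here as a marker of other cells.

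Small clones were last compared with cells whose clonotype was seen once, by summed CPM. Called here means a log2 ratio beyond 1 in either direction, among genes with at least 50 CPM in 1 of the 2 and at least 10 UMIs in both. In WT, 71 of 3519 genes were higher (2.02%) and 47 lower (1.34%) in small clones. All 8 cycling genes were among the higher: Mki67 measured 403 CPM in small clones and 156 CPM in cells seen once, a log2 ratio of 1.37 (exact counting interval 1.19 to 1.54), and Ube2c, which drives exit from mitosis, 1.83 (1.64 to 2.02). The highest ratios were those of Cenpe, a kinetochore motor, at 2.12, Cdca8 at 1.91, the kinase gene Cdk1 at 1.87 and Cdc20 at 1.84. Nkg7, at 1.02, and Gzmk, at 1.24, were higher as well.

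Some genes of naive T cells were among the 1.34% of genes called lower in WT small clones. Ccr7, the lymph node homing receptor, fell by 3.95 on the log2 scale, from 313 to 20.2 CPM, and Lef1, a transcription factor of naive T cells, by 2.08. Tcf7, S1pr1 and Klf2 did not pass the rule and measured −0.81, −0.92 and −0.95. The lowest ratios beside Ccr7 were those of Tubb2a (−2.76), Actn1 (−2.74), Rflnb (−2.58) and the chemokine gene Ccl3 (−2.49). Markers of plasmacytoid dendritic cells were also lower in WT small clones, 4 of 5, as was Lyz2, and their part in the counts was not tested; without cells that carried such markers or 2 TRB chains 88 genes were called higher and 35 lower, and the total was 123 in place of 118.

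In dKO few genes passed the same rule. Their total of 3 was 16 with the mean of each cell's CPM, and 10 without cells with 2 TRB chains or non-T markers. Il1b, a myeloid cytokine, was the 1 gene of 3430 (0.0292%) called higher, at 1.30, with 40.7% of its UMIs in small clones coming from 1 clone. The myeloid marker Lyz2 was not called and measured 306 CPM in small clones and 158 CPM in cells seen once, a log2 ratio of 0.95 (0.75 to 1.15), and its part in the Il1b value was not tested. The 2 genes called lower (0.0583%) were Ccr7, from 128 to 54.4 CPM or −1.24 (−1.64 to −0.85), and Satb1, a chromatin organizer of T cells, at −1.15. None of the 8 cycling genes was called, and Mki67 measured 261 CPM against 198 CPM, a log2 ratio of 0.40 (0.20 to 0.60). Foxp3 was at 227 CPM in small clones and 218 CPM in cells seen once in dKO, and at 47.9 and 66.7 CPM in WT. At 1000 UMIs per cell, Mki67 was found in 13.3% of small-clone cells and 5.24% of cells seen once in WT (14 and 35 shallower cells left out), and in 8.39% and 6.67% in dKO (48 and 76 left out).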

How the data were processed

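The deposited tables hold UMI counts per gene and cell, which the authors made from 5′ droplet libraries with Cell Ranger 7.0.1 on mm10, per the file headers and the submitters' processing notes, and receptor contigs with their UMI and read counts. No normalization had been applied. The members and the gene lists were chosen with earlier results of these data known. Genes named are the 4 given, Nr4a1 and Nr4a2, the list members, the 10 highest intraclass correlations of each library and the 5 called genes at each end of the small-clone ratio; further clones and genes were chosen after their values were seen.

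Counts were scaled to 10000 per cell and log-transformed, and 2000 variable genes were taken with scanpy 1.11.5, after the study's methods. CPM, exact intervals at 95% and one-way intraclass correlations with large-sample standard errors were computed in Python 3.11.15 with numpy 2.4.6, pandas 2.3.3 and scipy 1.17.1. The statistics were tested on simulated data. Unrelated pairs were all pairs of small-clone cells of different clones of a library. Doublets were not called; cells with 2 TRB chains were left out in an alternative. Gene positions come from GENCODE M21 on GRCm38, the assembly that mm10 denotes. Bulk RNA and flow cytometry were not analysed here, and 1 gene of the naive list is not reported here.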

Additional observations from a re-analysis of the deposited data

How the results depend on the processing

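Of 198 alternative values, 178 kept the direction and gave a value within the main interval or within 1.5 times the main count. Small clones numbered 79 (WT) and 114 (dKO) with clones of 2 cells only, 210 and 359 by TRB alone, and 307 in dKO by the deposited clonotype number. The Mki67 excess in WT reversed to −2.69 points with cells thinned to 1000 UMIs, and the dKO Foxp3 excess was 10.4 points there and 1.85 points with at least 2 UMIs. The excess of clones above the unrelated median, 20.3 (WT) and 26.0 (dKO) points, was 10.9 and 12.01 with all genes and 32.6 and 41.6 with 30 principal components. Genes at the intraclass threshold numbered 923 (WT) and 1113 (dKO) when thinned to 2000 UMIs, 1219 and 1136 with clones of 2 cells, and in dKO 260 by TRB alone and 343 by deposited number; the first 2 settings hold fewer cells, and the cause of the others was not tested. Genes called between small clones and cells seen once in dKO numbered 16 with the mean of each cell's CPM and 10 without cells with 2 TRB chains or non-T markers, in place of 3. Without cells with 2 TRB chains, without cells with non-T markers, without barcodes found in both libraries, and without clones that share a TRB, the last 2 chosen after seeing the data, every excess stayed within its main interval. No paired analysis was possible because each genotype is 1 library, so no library could be left out either. Depth limits the calls per cell, since a cell without a UMI of a gene may still express it.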

Other observations

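Clonotypes with the same TRB and a different main TRA were also compared in profile, WT-11 with WT-15 among them. In WT, 6 pairs of small clones with the same TRB gave 66 cell pairs with a median correlation of 0.514, against 0.527 for sisters and 0.494 for unrelated cells, and 4 of the 6 lay above the unrelated median. WT-11 with WT-15, WT-36 with WT-67, WT-5 with WT-130 and WT-32 with WT-51 also matched through a second TRA. Each of these may be 1 clone and not 2, which was not tested. The other WT pairs and the dKO pairs had no such match. In dKO 2 such pairs gave 26 cell pairs with a median of 0.539, against 0.501 for sisters and 0.441 for unrelated cells, and 1 of the 2 lay above it: dKO-8 with dKO-17 at the 85.9th percentile and dKO-52 with dKO-148 at the 46.5th. The number of contig UMIs per cell had an intraclass correlation of 0.295 ± 0.0595 (SE, over 138 clones) for TRB and 0.0469 ± 0.0578 for TRA in WT, the latter within 1 SE of 0, and of 0.151 and 0.233 in dKO.

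Small clones that had cells with the same TRB but no TRA contig numbered 71 in WT and 78 in dKO, and 29 and 20 of them would exceed 5 cells if those cells were added.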
